A study of Mus musculus with 6 samples.

Results

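The guanylate-binding proteins (GBP) and immunity-related GTPases (IRG) are the interferon-inducible GTPases that mouse cells use against intracellular microbes. Described here are 10 of their genes, Gbp2, Gbp3, Gbp5, Gbp6 and Gbp7 of the GBP family and Irgm1, Irgm2, Igtp, Iigp1 and Tgtp1 of the IRG family, in primary mouse chondrocytes with and without knockdown of Pkm2. They were found by symbol among the 55416 genes of the deposited table, and they had been chosen by their change between the 2 groups in these libraries, so that change is given as a description with no test. All 10 passed the filter on low counts, which left 15269 genes tested.

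The chondrocytes, cartilage cells taken by the labels from knee joints of neonatal wild-type mice (the study's methods give adult mice), were cultured in DMEM/F12 with serum. They received either a scrambled siRNA as control (siNC, 3 libraries) or an siRNA directed at Pkm2 (siPkm2, 3 libraries) by transfection, and total RNA was sequenced. By title all 3 libraries of the second group are siPkm2, while the genotype label reads PKM2, PKM3 and PKM4 knockdown in replicates 1, 2 and 3. No interferon, microbe or other stimulus is named for these cultures, and every library, the controls included, had received an siRNA. No source says whether the replicates came from separate animals, so the p-values below measure the spread between these libraries, which may be technical.

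GBP proteins are large GTPases of the dynamin superfamily. They gather on the membranes of vacuoles that hold microbes and on bacteria freed into the cytosol, and they feed bacterial lipopolysaccharide to inflammatory caspases. IRG proteins are smaller GTPases that attack such vacuoles, and the Irgm subgroup (Irgm1, Irgm2 and Igtp, also called Irgm3) holds the effector proteins (Iigp1, Tgtp1) inactive on the cell's own membranes. Transcription of both families is driven by interferon gamma and by interferons alpha and beta. The elements used are GAS elements (gamma-activated sites) and ISRE elements (interferon-stimulated response elements). A complex with STAT2 and IRF9 binds ISRE elements.

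Promoter sequences that match the letters of these elements are shown for the 8 members with an entry in the RefSeq promoter table. Each promoter ran from 250 bases before to 50 bases after the annotated start (GRCm38.p6). Gbp6 and Iigp1 had no entry. Capitals mark the letters GAAANNGAAA, the core of an ISRE, and TTCNNNGAA, a GAS, searched on both strands, and positions are counted to the first base of a match on the gene's strand. Each line is read 5′ to 3′ on the strand of its gene. The 4 GBP windows lie on the plus strand, at chr3:142620594-142620623 for Gbp2, chr3:142559989-142560024 for Gbp3, chr3:142496759-142496788 for Gbp5 and chr3:142530220-142530302 for Gbp7.
Gbp2: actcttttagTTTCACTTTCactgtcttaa
Gbp3: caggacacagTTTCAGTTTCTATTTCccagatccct
Gbp5: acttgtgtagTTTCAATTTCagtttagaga
Gbp7: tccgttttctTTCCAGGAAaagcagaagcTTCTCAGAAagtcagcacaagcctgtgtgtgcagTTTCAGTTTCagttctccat

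The 4 IRG windows lie at chr11:48871425-48871460 for Irgm1 and chr11:48992304-48992344 for Tgtp1, both on the minus strand, and at chr11:58214892-58214932 for Irgm2 and chr11:58199501-58199541 for Igtp, both on the plus strand.
Irgm1: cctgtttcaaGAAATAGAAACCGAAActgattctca
Irgm2: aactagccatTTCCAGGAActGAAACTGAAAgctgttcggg
Igtp: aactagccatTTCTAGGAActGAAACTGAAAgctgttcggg
Tgtp1: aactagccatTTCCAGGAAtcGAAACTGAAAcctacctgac

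All 8 promoters held the ISRE letters, which occur in 3.44% of the 32851 promoters of the same length. Of the 8, 5 also held the GAS letters, against 8.3% of all promoters, and these 5 (Gbp5, Gbp7, Irgm2, Igtp and Tgtp1) are the ones with both, against 0.454% of all. In Irgm2, Igtp and Tgtp1 the GAS letters came first and the ISRE letters 11 bases on, in nearly the same surroundings. Igtp and Irgm2 shared an unbroken run of 61 bases in this window. In Gbp2 and Gbp3 the ISRE letters began 59 and 45 bases before the start, on the opposite strand. Starts here are those of RefSeq, which differ from the GENCODE gene bounds given below. The printed windows of Gbp5, Irgm1, Irgm2 and Tgtp1 and the Gbp2 match lie inside those bounds. In Gbp3 and Irgm1 there were overlapping ISRE matches, and no ISRE match overlapped a GAS match. Gbp3 has an entry for a second start, which held neither. In Gbp5 a GAS match at 245 and another at 52 bases before the start lay outside the printed window. Of the 18 other GBP and IRG genes, 8 had an entry, 5 held the ISRE letters and 3 held both. A match is a description of the letters only.

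**Figure D1:**
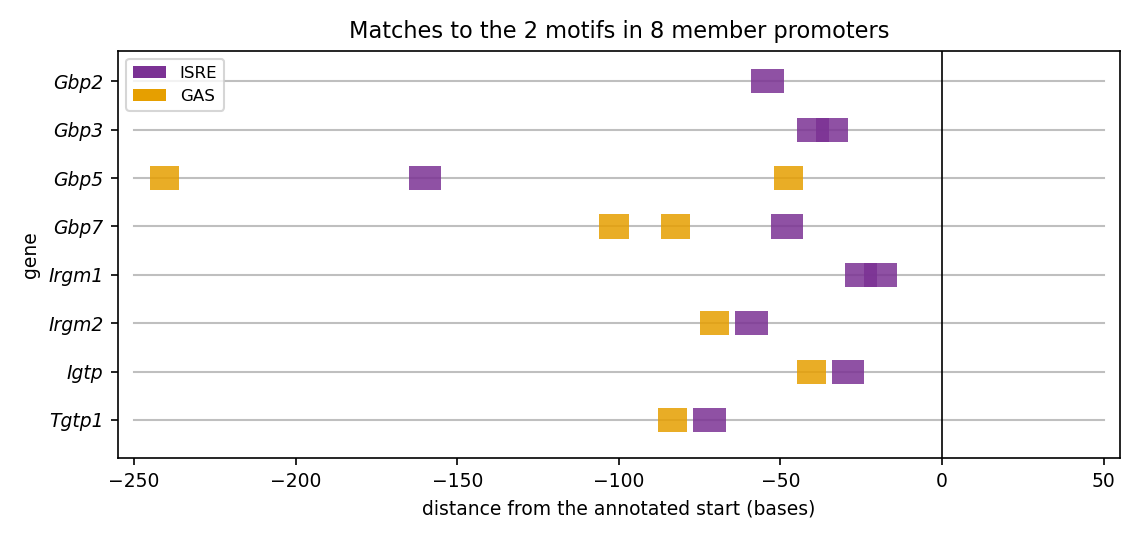
Matches to the ISRE letters (purple, 10 bases) and the GAS letters (orange, 9 bases) in the promoters of 8 members, by distance in bases from the annotated start (0, vertical line). All 8 hold a purple bar, Gbp5, Gbp7, Irgm2, Igtp and Tgtp1 also hold orange bars, and Gbp5 is the gene whose ISRE match lies farthest out, at 165 bases before the start.

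The libraries held between 22317065 and 25691096 estimated counts. Pkm, the targeted gene, was at 1654, 2209 and 1293 TPM in siNC replicates 1, 2 and 3 and at 245, 428 and 231 TPM in siPkm2 replicates 1, 2 and 3. TPM, the share of transcripts after division by length, is a level per length and is used to compare genes, while ratios between libraries use CPM, counts scaled to the library total with edgeR's TMM factors. Replicate 2 stood apart in both groups. The 10 chondrocyte markers, led by Col2a1, summed to 10211 CPM in siNC replicate 2 and 14206 CPM in siPkm2 replicate 2, against 39813 to 47774 CPM in the other 4 libraries. In bulk RNA, fewer cells of a type and less RNA per cell cannot be told apart. Since the levels below move with that replicate, values are given by replicate number, and with replicates 1 and 3 alone.

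Markers of macrophages, T and NK cells and endothelial cells were low. Markers of other cells, such as fibroblasts, were not examined. The 12 macrophage markers summed to 62.9 CPM in siNC replicate 2 and 40.2 CPM in siPkm2 replicate 2, against 9.46 to 16.8 CPM in the other libraries, and 7 of the 12 stayed under 10 counts in every library. Most of that sum was Cd68, at 55.5 and 33.4 CPM in the replicate 2 libraries. Lyz2 (2.0 to 3.63 CPM), Csf1r (0.561 to 2.14 CPM) and Mrc1 (1.23 to 1.84 CPM) had counts in every library. Adgre1, a defining macrophage gene, reached at most 0.2 CPM. The 8 T and NK cell markers, of cells that make interferon gamma, summed to at most 0.364 CPM, and 4 of them, Cd3e and Nkg7 among them, were at 0 in all 6 libraries. The 6 endothelial markers summed to between 0.641 and 2.1 CPM. The part of the macrophage markers and of the lower chondrocyte markers in the levels of replicate 2 was not tested.

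Among the GBP genes, which sit in a cluster on chromosome 3 except for Gbp6, Gbp3 had the highest mean TPM in both groups. Gbp3 (ENSMUSG00000028268, chromosome 3 from 142560026 to 142573209, GRCm38) was at 0.56, 98.5 and 2.2 TPM in siNC replicates 1, 2 and 3 and at 43.7, 177 and 37.8 TPM in siPkm2 replicates 1, 2 and 3. Gbp2 (ENSMUSG00000028270, chromosome 3 from 142620602 to 142638008), whose protein carries a lipid anchor and gathers on microbe-holding vacuoles, was at 2.61, 64.9 and 4.96 TPM in siNC and 18.7, 93.0 and 19.3 TPM in siPkm2. For both genes siPkm2 was higher within each replicate number, yet siNC replicate 2 lay above siPkm2 replicates 1 and 3, so the groups overlapped.

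Gbp5 (ENSMUSG00000105504, chromosome 3 from 142493978 to 142522344), which in macrophages promotes inflammasome assembly, had the lowest TPM of the GBP genes outside replicate 2. It was at 0.2, 24.8 and 0.37 TPM in siNC replicates 1, 2 and 3 and at 1.29, 51.0 and 2.11 TPM in siPkm2. Its siNC values outside replicate 2 rest on 10 and 15.8 estimated counts, the smallest counts of a GBP member. Gbp7 (ENSMUSG00000040253, chromosome 3 from 142530342 to 142550149) was at 1.59, 33.2 and 2.89 TPM in siNC and 10.8, 40.1 and 12.1 TPM in siPkm2. Gbp5 thus depended most on the replicate, while Gbp7 had the narrowest gap between the replicate 2 libraries.

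Gbp6 (ENSMUSG00000104713, chromosome 5 from 105270702 to 105293698, minus strand) belongs to the second GBP cluster. It was at 0.62, 42.0 and 1.41 TPM in siNC and 6.22, 79.7 and 9.79 TPM in siPkm2. Reads of this gene are uncertain, since 70.7% of the 50-base words in its annotated transcripts also occur in transcripts of other genes, 65.0% in Gm43302 alone. For the other GBP members this share was 12.7% in Gbp7 and at most 3.75% in Gbp2, Gbp3 and Gbp5.

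Of the regulatory IRG genes, Irgm1 (ENSMUSG00000046879, chromosome 11 from 48861968 to 48871683, minus strand) had the highest mean TPM of all 10 members. It was at 10.8, 94.6 and 12.8 TPM in siNC replicates 1, 2 and 3 and at 97.1, 176 and 68.9 TPM in siPkm2. Irgm2 (ENSMUSG00000069874, chromosome 11 from 58199618 to 58222782) was at 2.77, 40.9 and 8.59 TPM in siNC and 27.1, 72.0 and 34.8 TPM in siPkm2. In these genes siPkm2 replicates 1 and 3 came close to siNC replicate 2, and for Irgm1 siPkm2 replicate 1 passed it.

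Igtp (ENSMUSG00000078853, chromosome 11 from 58199556 to 58207591) was at 1.84, 44.5 and 4.09 TPM in siNC and 27.1, 92.7 and 26.7 TPM in siPkm2. Its annotated gene overlaps that of Irgm2 on the same strand, and 11.8% of its 50-base words also occur in Irgm2, so reads there could have been split between them.

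Both effector IRG genes were lower in TPM. Iigp1 (ENSMUSG00000054072, chromosome 18 from 60376027 to 60392634), the best studied effector, whose protein assembles on the vacuole membrane, was at 0.5, 39.2 and 4.07 TPM in siNC and 4.07, 57.8 and 13.1 TPM in siPkm2. Tgtp1 (ENSMUSG00000078922, chromosome 11 from 48985327 to 48994172, minus strand) was at 0.34, 4.79 and 0.24 TPM in siNC and 10.3, 32.0 and 4.4 TPM in siPkm2. The lowest member in siNC by mean TPM was Tgtp1, and siPkm2 replicate 1 passed siNC replicate 2 there, while siPkm2 replicate 3 did not. Its value is shared with a near-identical neighbour, since 79.4% of its 50-base words also occur in Tgtp2.

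**Figure D2:**
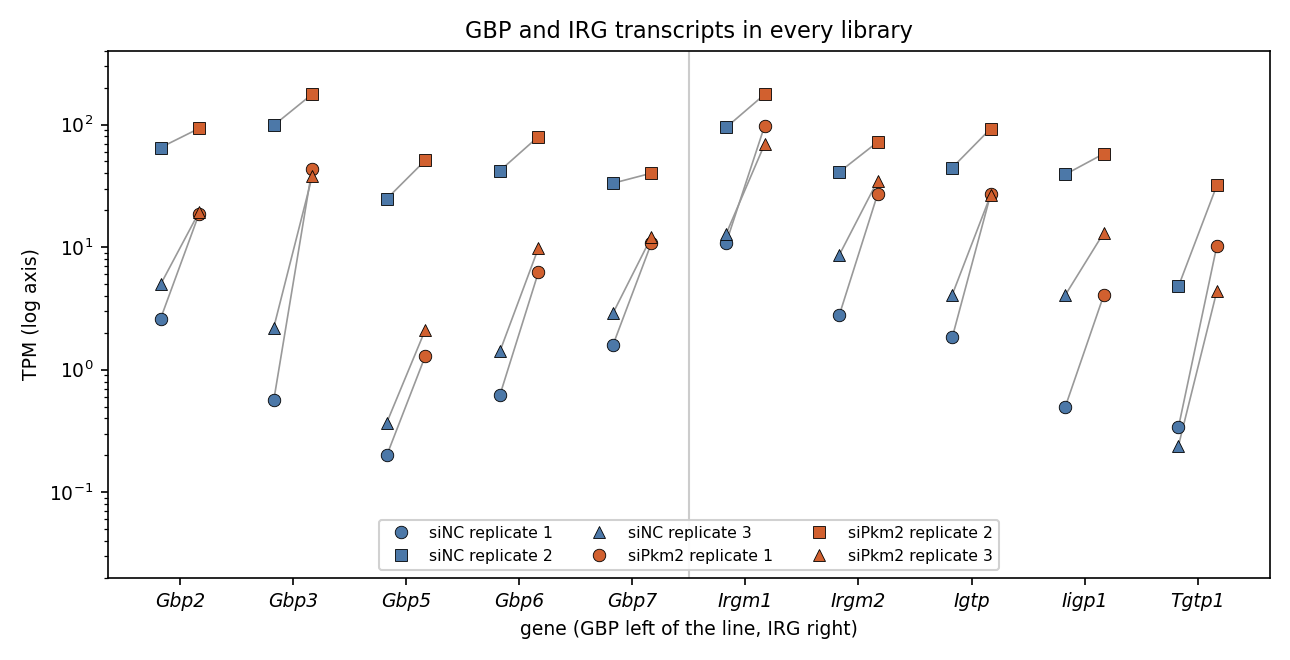
TPM (log axis) of the 10 members in each library, siNC in blue and siPkm2 in orange, with the symbol giving the replicate and grey lines joining libraries of the same number. Every line goes up, from 0.56 to 43.7 TPM for Gbp3 in replicate 1, and both square symbols (replicate 2) sit above the siNC circles and triangles of the same gene.

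The order of the mean levels was close in both groups. In siNC the mean TPM ran from 39.4 ± 47.8 (SD, n = 3) for Irgm1 and 33.8 ± 56.1 for Gbp3 down to 8.46 ± 14.2 for Gbp5 and 1.79 ± 2.6 for Tgtp1. In siPkm2 it ran from 114 ± 55.6 (SD, n = 3) for Irgm1 and 86.3 ± 78.9 for Gbp3 down to 18.1 ± 28.4 for Gbp5 and 15.6 ± 14.6 for Tgtp1. No 2 neighbours in either order were farther apart than the larger of their SDs. Within libraries the order turned with the replicate: Irgm1 led in replicates 1 and 3 of both groups, and Gbp3 led in replicate 2 of both groups.

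Summed over the family, the 5 GBP members came to 5.58, 263 and 11.8 TPM in siNC replicates 1, 2 and 3 and to 80.7, 441 and 81.2 TPM in siPkm2. The 5 IRG members came to 16.3, 224 and 29.8 TPM in siNC and to 166, 431 and 148 TPM in siPkm2. IRG transcripts thus made up 74.5%, 46.0% and 71.6% of the members' TPM in siNC and 67.2%, 49.4% and 64.6% in siPkm2, so the balance differed more between replicate 2 and the others than between the groups. Gbp3 was the member whose share of that sum differed most plainly between the groups in replicates 1 and 3. It held 2.56% and 5.28% in siNC replicates 1 and 3, 17.8% and 16.5% in siPkm2 replicates 1 and 3, and 20.2% and 20.4% in the replicate 2 libraries.

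Within each replicate number all 10 members were higher in siPkm2, against 30.5% of all genes tested that were higher in all 3 pairs. In pair 1 the ratio of CPM ran from 6.4 in Gbp5 to 68.3 in Gbp3, with a median of 9.47. Pair 3 gave ratios from 3.5 in Iigp1 to 19.1 in Tgtp1, with a median of 5.78. In pair 2 they were smaller, from 1.27 in Gbp7 to 6.94 in Tgtp1, with a median of 2.0. Tgtp1 and Gbp3 were the members with the largest ratios in pairs 1 and 3, and in pair 2 Tgtp1 stood alone, since the next ratio there was 2.16 in Gbp5.

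**Figure D3:**
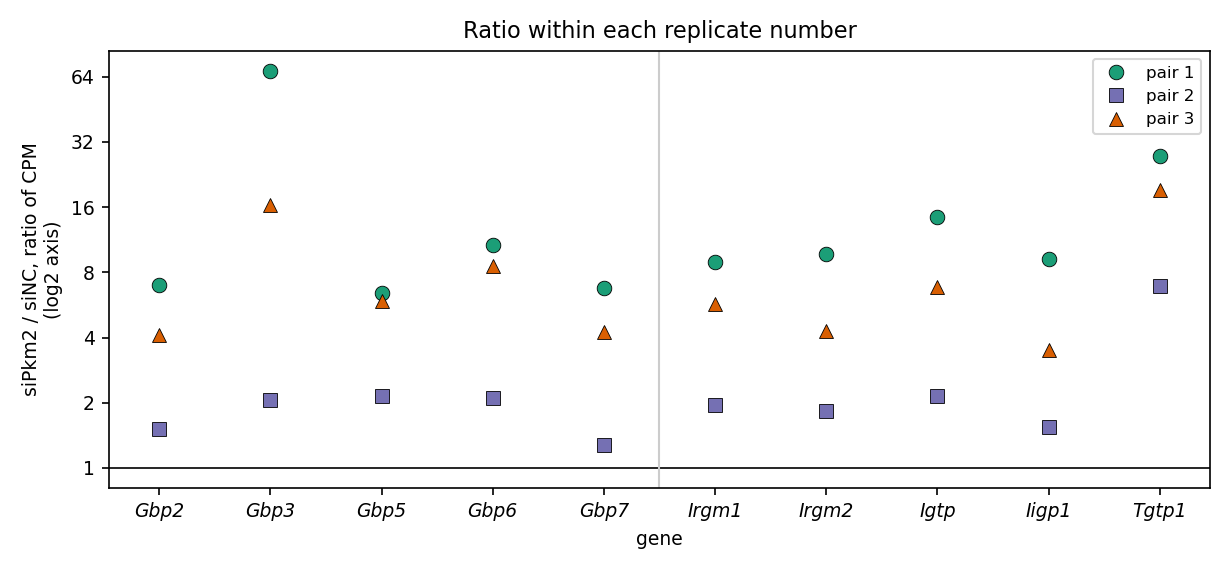
Ratio of siPkm2 to siNC in CPM (log2 axis) for the 10 members within replicate numbers 1, 2 and 3. All 30 points lie above the line at 1, and pair 2 (squares) is the lowest of the 3 pairs in every gene, at 1.27 to 2.16 except for Tgtp1 at 6.94.

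The spread in siNC was as wide as these ratios. In siNC replicate 2 the members were between 6.81 times (Irgm2) and 78.9 times (Gbp5) the mean of siNC replicates 1 and 3, with a median of 15.6. The same ratio within siPkm2, replicate 2 over the mean of replicates 1 and 3, ran from 1.99 (Irgm1) to 28.1 (Gbp5), with a median of 4.32. No member had all siPkm2 libraries above all siNC libraries, against 12.0% of all genes tested that did.

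Without regard to the replicate number, the log2 fold changes ran from 0.83 in Gbp7 (standard error 1.11) to 3.16 in Tgtp1 (standard error 1.28), with a median of 1.37 over the members and -0.02 over all genes tested. With the replicate number as a block, they ran from 1.59 in Iigp1 (standard error 0.43) to 3.64 in Tgtp1 (standard error 0.4), with a median of 2.11 over the members and -0.01 over all genes. The standard errors over the members lay between 0.86 and 1.96 without the block and between 0.32 and 0.95 with it. Gbp3 and Gbp5 show the range of the gain: the standard error of Gbp3 went from 1.62 to 0.95, that of Gbp5 from 1.96 to 0.32.

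A call required more than a 2-fold change together with an adjusted p below 0.05 in the quasi-likelihood test of edgeR, with p-values adjusted by Benjamini-Hochberg across the genes tested. Without the block 0 of 10 members were called higher, as were 0% of all genes. At an unadjusted p under 0.05 there was 1 member, Tgtp1, and 2690 of all genes. DESeq2's Wald test without the block called none of the members, against 430 of the 28059 genes in that fit. With the block 7 of 10 members were called higher, all but Gbp3, Gbp7 and Iigp1, against 2.65% of all genes tested. With pairs 1 and 3 alone and no block, 7 members were called (Gbp2, Gbp3, Gbp6, Gbp7, Irgm1, Igtp and Tgtp1), against 2.06% of all genes. Since the members were chosen by this contrast, nothing is read from these counts. With siPkm2 replicate 2 left out and siNC replicate 2 kept, 4 members had a lower mean in siPkm2: the log2 fold change was -0.20 for Gbp2, -2.15 for Gbp5, -0.59 for Gbp6 and -0.64 for Iigp1. With siNC replicate 2 left out instead, the median over the members was 3.79.

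Measured against siNC replicate 2, the control library with the highest levels, the mean CPM of siPkm2 replicates 1 and 3 separated the members. For the GBP genes it was 7.69% of that library for Gbp5, 23.2% for Gbp6, 32.6% for Gbp2, 39.1% for Gbp7 and 47.9% for Gbp3. For the IRG genes it was 23.8% for Iigp1, 66.7% for Igtp, 83.6% for Irgm2, 98.2% for Irgm1 and 159% for Tgtp1. The regulatory IRG genes and Tgtp1 therefore had higher percentages than any GBP gene, Tgtp1 passed that control, and Iigp1 lay among the GBP genes. Tgtp1 and Tgtp2 went apart here, with 159% and 41.8%, but their reads cannot be separated well.

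**Figure D4:**
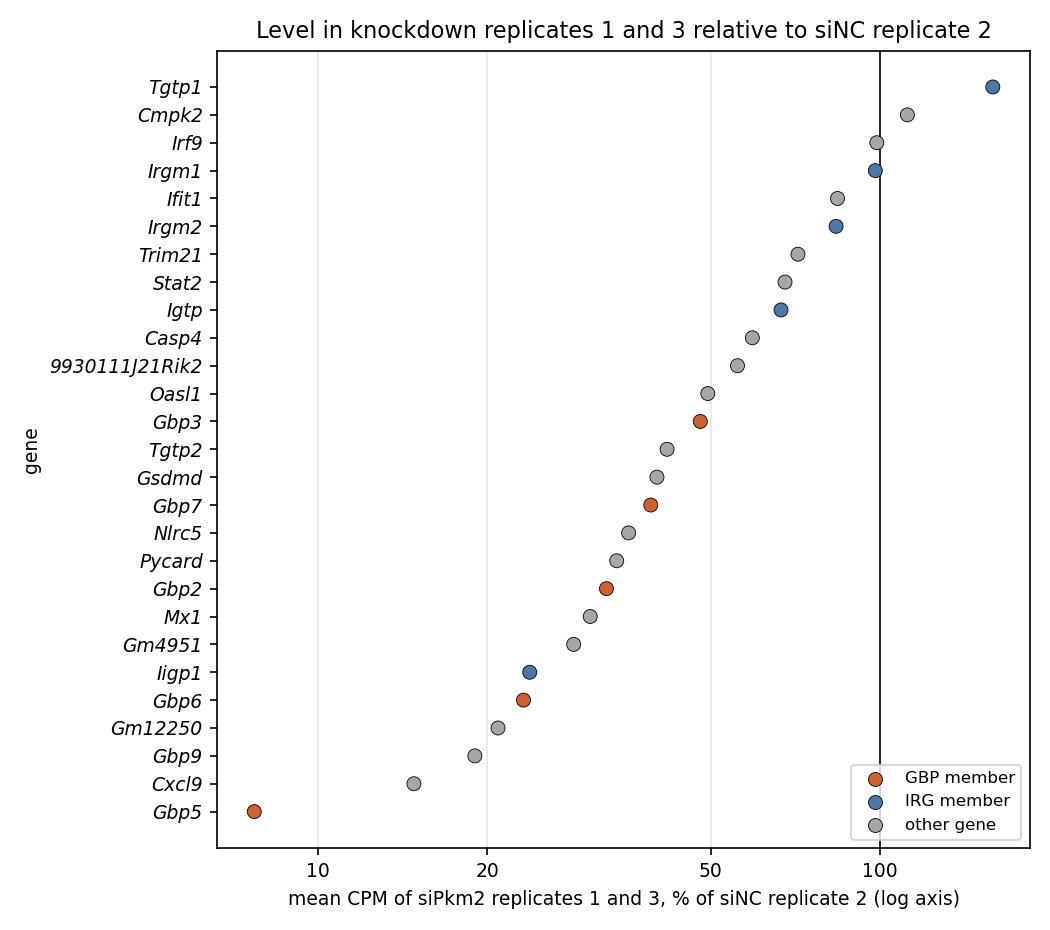
Mean CPM of siPkm2 replicates 1 and 3 as a percentage of siNC replicate 2 (log axis), for the GBP members (orange), the IRG members (blue) and the other family and pathway genes called higher with the replicate block (grey). Gbp5 lies lowest at 7.69% and Tgtp1 highest at 159%, Cxcl9 lies near Gbp5 at 14.8%, and Cmpk2 and Irf9 lie near the top at 112% and 98.8%.

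Of the other 18 GBP and IRG genes, 10 passed the filter and 1 had no count. Without the block none was called in the quasi-likelihood test of edgeR (Benjamini-Hochberg), and none had an unadjusted p under 0.05. DESeq2's Wald test without the block also called none, against 430 of the 28059 genes in that fit. With the block 5 rose (Gbp9, Tgtp2, Gm12250, Gm4951 and 9930111J21Rik2), against 2.65% of all genes tested, and none fell. In all 10 the log2 fold change was above 0, as without the block in 7341 of the 15269 genes tested. Its median was 1.56 without the block and 2.09 with it, and Irgq was lowest at 0.29. These genes are no independent support. The list was made with earlier results of these data known, and 85.8% of the 50-base words of Tgtp2 also occur in Tgtp1. With pairs 1 and 3 alone and no block only 1 of them was called.

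Gm4951, an IRG gene on the chromosome of Iigp1, was at 0.27, 14.2 and 1.65 TPM in siNC and 2.16, 25.3 and 5.1 TPM in siPkm2, a log2 fold change of 1.5 with the block (adjusted p = 0.0118, quasi-likelihood test of edgeR, Benjamini-Hochberg). Gm12250, known as Irgb10, an IRG effector that attacks bacterial membranes, was at 0.06, 1.76 and 0.05 TPM in siNC and 0.11, 7.39 and 0.63 TPM in siPkm2, with 2.34 and adjusted p = 0.0213 by the same edgeR test. Gm12250 had only 1 and 2 counts in siNC replicates 1 and 3 and 7 counts in siPkm2 replicate 1. Gm4951 and Gm12250 followed the replicate as Gbp2 and Gbp3 did, with siNC replicate 2 above siPkm2 replicates 1 and 3. Gbp9 had a log2 fold change of 1.87 and Tgtp2 one of 2.40 (adjusted p = 0.0144 and 0.0109, both by edgeR with the block). Gbp10, Gm5431, 9930111J21Rik1 and Gm4841 had log2 fold changes between 2.0 and 2.46 with the block and were not called. Gbp10 shares 73.3% of its 50-base words with Gbp6.

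Irgq, an IRG-like gene that interferon is not known to induce, changed least among the other family genes tested. It was at 11.1, 16.1 and 13.6 TPM in siNC and 14.1, 18.1 and 15.8 TPM in siPkm2, higher within each replicate number. Its log2 fold change of 0.29 with the block (standard error 0.08, adjusted p = 0.0486, edgeR with the block) stayed under the fold of 2. The atlastins, the dynamin-superfamily GTPases of the endoplasmic reticulum that are most like GBP proteins, gave no call among 3 genes. Atl1 was at 7.48, 8.72 and 8.7 TPM in siNC and 3.66, 3.64 and 3.51 TPM in siPkm2. Its log2 fold change of -0.85 with the block (adjusted p = 0.0224, edgeR with the block) missed only the fold of 2. Atl2 and Atl3 lay at -0.17 and -0.11. Gbp4, Gbp8, Gbp11, Gbp2b, Gm12185, Gm12187 and Irgc1 were too low to test, at no more than 4.65 TPM in any library (Gbp4 in siPkm2 replicate 2).

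Interferon transcripts themselves were scarcely detected. Of 12 interferon ligand genes, 10 had no count in any library, Ifng among them, which allows at most between 0.117 and 0.134 CPM per library (3 counts, counting error only). Ifnb1, which encodes interferon beta, had 5 counts in siNC replicate 2, 28 counts in siPkm2 replicate 2 and none in the other 4 libraries. Ifna4 had 1 count, in siPkm2 replicate 2. None of the 12 could be tested. The few ligand reads therefore came from the replicate 2 libraries, which also had the highest GBP and IRG levels within their groups.

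The receptors and Janus kinases gave no call in either direction among 9 genes, with or without the block. Ifngr2, which pairs with Ifngr1 to bind interferon gamma, was at 17.9, 30.0 and 20.1 TPM in siNC and 23.7, 33.6 and 25.2 TPM in siPkm2. Jak1, the kinase that both receptors use, was at 55.9, 90.1 and 72.8 TPM in siNC and 56.5, 88.5 and 79.3 TPM in siPkm2. Ifnar2, a chain of the receptor for interferons alpha and beta, was at 47.7, 153 and 66.8 TPM in siNC and 48.9, 171 and 59.4 TPM in siPkm2, so it was high in replicate 2 of both groups and close between the groups. Ifnar1, the other chain, had a log2 fold change of -0.05 with the block.

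Of 12 transcription factors and inhibitors, 10 were tested and 3 rose with the block, against 2.65% of all genes tested. None was called without it. Stat2 was at 11.2, 147 and 20.4 TPM in siNC and 81.4, 215 and 95.1 TPM in siPkm2. Stat2 and Irf9, which act together on ISRE elements, had log2 fold changes of 1.95 and 1.54 with the block (adjusted p = 0.0299 and 0.0484, quasi-likelihood test of edgeR), and Nlrc5, an activator of MHC class I genes, had 2.27 (adjusted p = 0.0473, same edgeR test). For Stat2, as for Gbp2 and Gbp3, siNC replicate 2 lay above siPkm2 replicates 1 and 3. Irf7 was at 2.86, 283 and 4.2 TPM in siNC and 71.6, 386 and 55.6 TPM in siPkm2 and was not called (adjusted p = 0.0648, edgeR with the block). Socs3, an inhibitor of cytokine signalling, had a log2 fold change of 0.47 with the block and was not called.

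**Figure D5:**
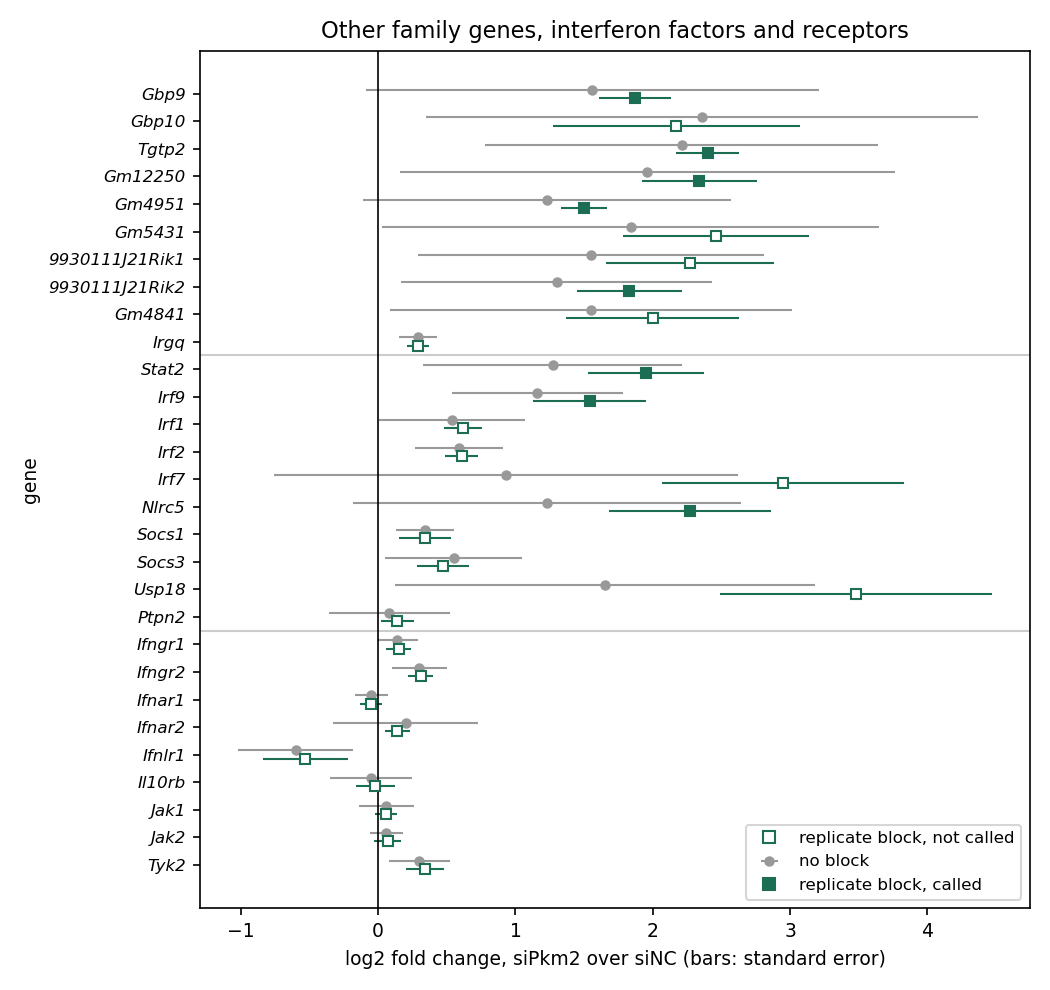
Log2 fold change of siPkm2 over siNC with its standard error for the tested genes of 3 lists (other GBP and IRG genes on top, transcription factors and inhibitors in the middle, receptors and kinases below), without the block (grey) and with the replicate block (green, filled where called). The called genes are Gbp9, Tgtp2, Gm12250, Gm4951 and 9930111J21Rik2 on top and Stat2, Irf9 and Nlrc5 in the middle, and all receptors and kinases lie between -0.60 and 0.34.

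The target genes known for one kind of interferon are given beside the members. Of 10 genes known mainly as targets of interferons alpha and beta, all were tested. With the block 4 rose (Ifit1, Mx1, Oasl1 and Cmpk2), against 2.65% of all genes tested. The median log2 fold change over the 10 was 1.58 without the block and 3.26 with it, against -0.02 and -0.01 over all genes. Ifit1, which binds foreign RNA, was at 1.62, 141 and 4.74 TPM in siNC and 109, 331 and 105 TPM in siPkm2 (log2 fold change 3.91, adjusted p = 0.0445, edgeR with the block). Isg15, a ubiquitin-like protein, was at 10.4, 747 and 23.1 TPM in siNC and 742, 1402 and 421 TPM in siPkm2 and was not called (adjusted p = 0.0593, edgeR with the block). Ifit3 and Ifi44 had log2 fold changes of 2.86 and 3.26 with the block and were not called.

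Of 10 genes known mainly as targets of interferon gamma, 5 were tested and 1 rose with the block, against 2.65% of all genes tested. The median log2 fold change was -0.14 without the block and -0.11 with it. The chemokine gene Cxcl9 was at 0.09, 6.73 and 0.05 TPM in siNC and 0.44, 26.1 and 4.66 TPM in siPkm2 (log2 fold change 2.35, adjusted p = 0.0224, edgeR with the block). Cxcl9 had only 4 and 2 counts in siNC replicates 1 and 3 and 17 counts in siPkm2 replicate 1. H2-Ab1, a chain of MHC class II, was at 37.4, 104 and 36.4 TPM in siNC and 24.9, 88.3 and 25.6 TPM in siPkm2, below siNC within each replicate number, and was not called (log2 fold change -0.42, adjusted p = 0.0544, edgeR with the block). Cd74 and H2-DMa, which serve MHC class II loading, had log2 fold changes of -0.76 and -0.11 (standard errors 0.34 and 0.21) and were not called. Cd74 had 18 to 58 counts per library. H2-Eb1, the fourth MHC class II gene tested, named here after its values were seen, had a log2 fold change of 0.36 and was not called. Its standard error was 0.45, and it had only 4 to 22 counts per library. H2-Ab1, Cd74 and H2-DMa thus lay below 0 and H2-Eb1 above, but H2-DMa and H2-Eb1 lay closer to 0 than their standard errors. The difference of these genes from the GBP and IRG members was not tested.

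Partners of the proteins were measured too. Of 13 autophagy genes that place GBP and IRG proteins on membranes, 1 rose with the block, against 2.65% of all genes tested. It was Trim21, an antibody receptor and ubiquitin ligase (log2 fold change 1.44, adjusted p = 0.0293, edgeR with the block). Sqstm1, the p62 adaptor, was at 241, 462 and 275 TPM in siNC and 529, 518 and 505 TPM in siPkm2, a log2 fold change of 0.76 with the block that stayed under the fold of 2. Gabarap and Map1lc3b, which are attached to autophagy membranes, had log2 fold changes of 0.24 and 0.57. Sqstm1 and Map1lc3b had adjusted p = 0.0395 and 0.0142 (edgeR with the block). Their siPkm2 libraries all lay above their siNC libraries, as in 12.0% of all genes tested. Without the block 6 of the 13 genes (46.2%) had an unadjusted p under 0.05 by edgeR, against 17.6% of all genes tested. All but 1 of this list missed the fold or the p of a call.

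Of 8 inflammasome genes, 5 were tested and 3 rose with the block, against 2.65% of all genes tested. Casp4, the caspase that binds lipopolysaccharide, was at 15.5, 63.8 and 8.01 TPM in siNC and 36.4, 95.1 and 35.3 TPM in siPkm2 (log2 fold change 1.30, adjusted p = 0.0358, edgeR with the block). The adaptor gene Pycard and Gsdmd, whose product forms the pore of pyroptosis, had 1.10 and 1.13 (adjusted p = 0.0176 and 0.025, same edgeR test). Il18 was at 15.6, 15.4 and 19.3 TPM in siNC and 9.32, 9.99 and 11.7 TPM in siPkm2 and was not called, with a log2 fold change of -0.68. The caspase and pore genes and the cytokine gene Il18 therefore lay on opposite sides of 0.

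Of 5 genes of enzymes that add lipid anchors to proteins or process the lipid-bearing end, 1 fell with the block, against 3.18% of all genes tested that were called lower. Which of these enzymes acts on Gbp2 or Gbp5 was not tested. Fntb, the beta subunit of farnesyltransferase, was at 14.5, 13.9 and 16.6 TPM in siNC and 7.91, 6.16 and 8.72 TPM in siPkm2 (log2 fold change -1.01, adjusted p = 0.0117, edgeR with the block), and its groups did not overlap (all siPkm2 libraries below all siNC libraries). The other 4 enzymes were not called. Icmt, which methylates the lipid-bearing end, was at 23.8, 32.3 and 27.2 TPM in siNC and 37.6, 36.9 and 41.1 TPM in siPkm2, a log2 fold change of 0.49 with the block that stayed under the fold of 2 (adjusted p = 0.0257, edgeR with the block), and its siPkm2 libraries all lay above its siNC libraries, as in 12.0% of all genes tested. The log2 fold change with the block was 0.21 for Fnta, the alpha subunit that goes with Fntb, 0.05 for the protease gene Rce1, and -0.31 for Pggt1b, a subunit of the enzyme that adds the longer geranylgeranyl anchor. The enzymes thus did not move one way, with a median of 0.05 over the 5.

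Over all 78 pathway genes listed, 57 were tested and none was called without the block in the same edgeR test. DESeq2's Wald test without the block also called none of the pathway genes, against 430 of the 28059 genes in that fit. An unadjusted p under 0.05 was found for 9 of the 57 (15.8%), against 17.6% of all genes tested. With the block 12 rose and 1 fell, against 2.65% and 3.18% of all genes tested.

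The genes whose levels followed the members most closely were sought by Pearson's r between their log2(CPM + 0.5) over the 6 libraries and the mean standardised profile of the members, leaving out the genes of the lists. The members themselves had r between 0.928 (Tgtp1) and 0.995 (Gbp7). The 10 closest genes were Zbp1, Mt2, Oas1b, Dtx3l, Tap1, H2-T23, Sidt2, Sp100, Abca3 and Peak1, with r between 0.996 and 0.998. Zbp1, a sensor of Z-form nucleic acid, was at 0.21, 78.5 and 0.95 TPM in siNC and 17.6, 167 and 20.1 TPM in siPkm2. Tap1, which pumps peptides for MHC class I, was at 6.93, 75.1 and 10.8 TPM in siNC and 32.0, 137 and 42.1 TPM in siPkm2. Such values are common here, since 817 of the 15172 tested genes outside the lists had r of at least 0.9, and the 6 points share the contrast of replicate 2 with the other libraries.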

How the data were processed

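RNA-seq was measured in 6 libraries of mouse chondrocytes (3 siNC, 3 siPkm2), grouped by their labels. Each deposited table gives estimated counts for every gene, left unnormalized by the authors, and TPM values. The authors' comparison columns, a fold change (ratio), a log2 fold change, a p-value and an adjusted p-value, were not used. The submitters' processing notes name mm9 and edgeR; the aligner, counter and annotation are not given in the sources used here. The deposited files hold gene identifiers without coordinates; 94.0% of identifiers occur in GENCODE M21, which gave positions on GRCm38.

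Counts were rounded and tested in R 4.3.3 with edgeR 4.0.16 (filterByExpr, TMM, quasi-likelihood test, Benjamini-Hochberg adjustment), after a check on simulated data. A call needed more than a 2-fold change and an adjusted p below 0.05. Also run were RLE or upper-quartile scaling, the Wald test of DESeq2 1.42.0, no filter, a minimum of 10 counts per library, the replicate block, each library left out, pairs 1 and 3 alone, and, for each member, log2(TPM + 0.1) and log2(TPM + 1). The block was used because deviations of libraries with the same number correlated at 0.664, 0.756 and 0.646, and all other pairs at 0.158 or below; the labels do not say what a number stands for. Total counts, at least 22317065 per library, leave the spread between libraries as the main error. No 2 libraries were duplicates. The members and lists were chosen with earlier results of these data known. Named were all members, the detected family genes, pathway genes called with the block and otherwise up to 4 a list by mean CPM, and the 10 genes most like the members. Protein sequences were not used here, and 1 gene of the fixed lists is not reported here and is left out of their counts.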

Additional observations from a re-analysis of the deposited data

How the results depend on the processing

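The number of genes called in siPkm2 over siNC was 0 with TMM or RLE factors, 3 with upper-quartile factors, 9 with no filter, 3 with at least 10 counts in every library, 430 with DESeq2, 890 with the replicate block, 1017 with the replicate block in DESeq2 and 507 with pairs 1 and 3 only; leaving out one library gave 0 to 105, the highest without siNC replicate 2. The pairing by replicate number moved the members called from 0 to 7 with the replicate block and to 10 with the replicate block in DESeq2, pairs 1 and 3 only gave 7, and leaving out one library gave 0 to 1, the 1 being Irgm1 without siNC replicate 2. The other GBP and IRG genes called were 5 with the replicate block, 8 with the replicate block in DESeq2 and 1 with pairs 1 and 3 only, and stayed at 0 with each library left out. The pathway genes called were 13 with the replicate block, 21 with the replicate block in DESeq2 and 16 with pairs 1 and 3 only, and 0 to 3 with a library left out. The median log2 fold change of the members was 2.72 with pairs 1 and 3 only and 0.25 to 3.79 with a library left out, the lowest without siPkm2 replicate 2 and the highest without siNC replicate 2; other scaling, no filter and DESeq2 without the block kept it between 1.32 and 1.38, and at least 10 counts in every library gave 1.29 over 9 members, without Tgtp1. The sign turned for Gbp2 (-0.20), Gbp5 (-2.15), Gbp6 (-0.59) and Iigp1 (-0.64) without siPkm2 replicate 2, and these reached 3.52, 5.93, 5.10 and 3.55 without siNC replicate 2. Of 99 single-member values under the alternatives that kept all 3 numbers or dropped pair 2, none turned sign and 83 stayed within 1 SD of the 3 pairs. The other 16 all moved upwards, with pairs 1 and 3 only, the replicate block in edgeR or DESeq2, or, for Gbp5, log2(TPM + 0.1). Other scaling, no filter, the minimum count and DESeq2 without the block moved none. The cause of these changes was not tested. Among the members depth limits Gbp5 and Tgtp1 most, with 8.79 to 15.8 estimated counts in siNC replicates 1 and 3. Some called genes outside the members, such as Gm12250 and Cxcl9, had fewer counts there.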
